A study of Homo sapiens with 4 samples.

Results

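The integrated stress response genes examined here are the transcription factor ATF4, the factors that work with it, and the amino-acid and stress genes known as its targets. They are 37 genes taken by symbol from the 63677 genes counted in HCT116 cells, a human colorectal cancer line, and 35 of them passed the filter on low counts with 15116 genes in all. The list was drawn up after genes of this pathway had stood out between the ASOs in these same libraries, so the differences between the ASOs given here describe its members and are no independent evidence about them.

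Stress kinases that phosphorylate the initiation factor eIF2 slow translation in general while favouring translation of the ATF4 mRNA. The ATF4 protein pairs with C/EBP-family and related bZIP factors and binds composite C/EBP-ATF elements in promoters of genes for amino-acid synthesis, uptake and tRNA charging. The pathway is switched on when amino acids run short, heme is lacking, double-stranded RNA is sensed or the endoplasmic reticulum or mitochondria are disturbed, and colorectal cancer cells use it to sustain serine and asparagine supply.

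The data are RNA-seq libraries of HCT116 cells transfected with an anti-GAA antisense oligonucleotide (ASO), which targets RNAs with tandem GAA repeats for RNase H, or with a control ASO, in 2 libraries each (replicates 1 and 2, numbered 232 and 234 in the labels). All 4 come from 1 cell line in RPMI medium, transfected for 48 h according to the labels, while the paper's methods give a shorter transfection for ASOs. The control ASO was made by another supplier than the anti-GAA ASO, and there is no untreated library. The labels name a total RNA kit and the paper's methods a stranded mRNA kit. Total counts were 10538284, 17894953, 15347298 and 15924742 in anti-GAA replicates 1 and 2 and control replicates 1 and 2. The ASO targets were taken as the 373 tested genes whose longest transcript carries 12 nt or more of uninterrupted GAA repeat. The log2 fold change was negative for 71.6% of them and for 48.4% of the 15116 tested genes. With runs of 9 nt or more the negative share was 57.8%, and with 15 nt or more it was 84.0%. Whether the ASO binds these RNAs was not tested. Of 6 epithelial markers, 5 were expressed (EPCAM at 628 to 740 CPM, counts scaled to library size with TMM factors) and VIL1 reached 0.112 CPM at most. Of 6 markers of other cell types, CD3E, COL1A2 and PECAM1 had no count in any library, PTPRC and VWF reached 0.281 and 0.767 CPM at most, and COL1A1 was at 10.1 to 14.6 CPM. In bulk RNA, a shift in every cell and a shift in the share of responding cells cannot be told apart.

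GAA runs were searched in the longest spliced transcript of each member. Introns and other isoforms were not searched, so whether the ASO acts on these RNAs directly was not tested. No member held a run of 12 nt or more, against 2.53% of 14751 tested genes with a transcript sequence. A run of 9 nt or more was held by 6 of 37 members, against 19.8% of those genes. The longest run was 10 nt, in SLC38A2. The members had a median transcript length of 3252 nt, against 3407 nt over all tested genes, and a median GC content of 52.3%, against 48.0%.

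Between the ASOs, 32 of the 35 tested members had a log2 fold change above 0 with the anti-GAA ASO and 3 below 0, where 51.6% of all tested genes were above 0. The median was 0.24 over the members and 0.013 over all tested genes. With scaling to total counts, which moved the median of all tested genes to −0.081, 28 were above 0 and 7 below. At an adjusted p under 0.05, edgeR's quasi-likelihood test without a block called none of them, as it did 0% of all genes in either direction. DESeq2 called 0 members too, beside 0% of all genes higher and 0.0331% lower. At an unadjusted p under 0.05 in edgeR, 3 members were higher (ATF4, PHGDH and SESN2) and 0 lower, beside 1.02% of all genes higher and 3.46% lower. DESeq2 had 5 members higher and 0 lower at that level, beside 0.662% and 2.1% of all genes. Compared as pairs by replicate number, with the number as a block in edgeR, 4 members were called higher (CHAC1, PHGDH, SESN2 and ASNS) and 0 lower. This fit leaves 1 residual degree of freedom, and edgeR's test moderates the spread of each gene with that of all tested genes. Its p-values thus rest in part on other genes, and they measure only the spread between these 4 libraries. The same fit called 0.337% of all genes higher and 1.37% lower. At an adjusted p under 0.1 it had 7 members higher and 0 lower, beside 1.02% and 2.91% of genes, and at an unadjusted p under 0.05 it had 10 higher and 0 lower, beside 6.86% and 9.7%. DESeq2 with the block called 2 of the 4, CHAC1 and PHGDH, and no member lower, where 0.0932% of genes were called higher and 0.323% lower. These counts come from the contrast that drew attention to the pathway, and nothing is read from their difference from the background. The labels do not say whether libraries of the same number share a culture, a day or a batch.

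The libraries of each condition were fully separated for 11 members, which were higher in both anti-GAA libraries than in either control library, and no tested member was lower in both. Among all tested genes 15.5% were separated upwards and 16.9% downwards. Within the pairs, 23 members were higher in both, 1 was lower in both and 11 changed sign, against 31.8% of all genes higher in both and 30% lower in both. The median log2 difference of the members was 0.14 for replicate 1 and 0.36 for replicate 2.

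**Figure D1:**
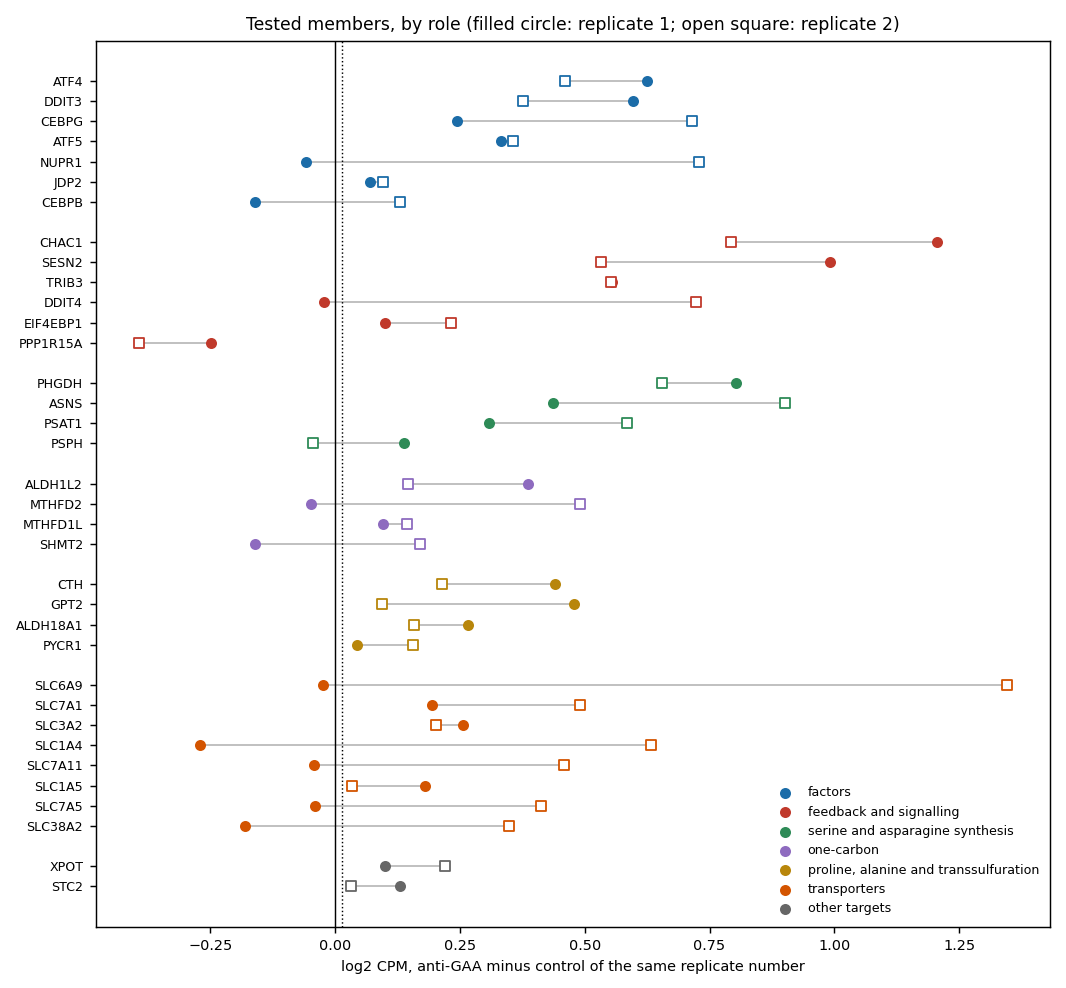
Difference in log2 CPM between the anti-GAA and the control library of the same replicate number for the 35 tested members, grouped by role. Filled circles are replicate 1 and open squares replicate 2, the solid line marks 0 and the dotted line the median log2 fold change of all tested genes (0.013). PPP1R15A is the only member below 0 in both pairs, and most transporters lie near 0 or below it in replicate 1 and above it in replicate 2.

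With all 4 libraries, the members with the largest log2 fold changes between the ASOs were enzymes of serine and asparagine synthesis and stress-induced regulators. PHGDH (ENSG00000092621, chr1:119648411-119744218 on GRCh38), which opens the serine pathway, had 320 and 258 CPM in anti-GAA replicates 1 and 2 and 184 and 163 CPM in control replicates 1 and 2. Both anti-GAA libraries lay above both controls, with a log2 fold change of 0.74 (standard error 0.21) without the block and 0.73 (0.14) with it. ASNS (ENSG00000070669, chr7:97851677-97872542), which makes asparagine from aspartate and glutamine, had 453 and 376 CPM under anti-GAA, against 335 and 202 CPM in control. Its libraries did not overlap either, and its log2 fold change was 0.63 (standard error 0.28), or 0.67 (0.15) with the block, but 0.32 without control replicate 2 and 1.03 without control replicate 1. PSAT1, the aminotransferase that follows PHGDH, had 339 and 282 CPM against 274 and 188 CPM, again with no overlap, at 0.43 (standard error 0.24), but 0.19 without control replicate 2 and 0.71 without control replicate 1. PSPH, the phosphatase of the last step, had the smallest log2 fold change of its branch with all 4 libraries. It had 56.4 and 57.3 CPM against 51.3 and 59.1 CPM, its libraries overlapped, and its log2 fold change was 0.042 (standard error 0.20). Without control replicate 2 it was 0.16, beside the 0.19 of PSAT1, and without control replicate 1 it was −0.065. The difference between PSPH and the other enzymes was not tested. The counts of PSPH may be split with its pseudogene PSPHP1, which held 8.68% as many counts.

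CHAC1 and SESN2 had the largest log2 fold changes of the tested members with all 4 libraries in the fit, but not without anti-GAA replicate 1. CHAC1 (ENSG00000128965, chr15:40952962-40956512), which degrades glutathione, had 43.9 and 15.005 CPM under anti-GAA, against 19.0 and 8.61 CPM in control. Its conditions overlapped, because the control library of replicate 1 was above the anti-GAA library of replicate 2, yet it was 2.32 times higher in the first pair and 1.74 times higher in the second. The log2 fold change was 1.09 (standard error 0.56), or 1.02 (0.18) with the block. It was called without anti-GAA replicate 2 as well, at 1.68, but was 0.13 without anti-GAA replicate 1, 0.63 without control replicate 2 and 1.76 without control replicate 1. SESN2 (ENSG00000130766, chr1:28259518-28282491), a leucine sensor that restrains mTORC1 and is also a p53 target, had 136 and 71.1 CPM against 68.5 and 49.1 CPM. Its conditions did not overlap, at a log2 fold change of 0.82 (standard error 0.34), or 0.76 (0.15) with the block, and it was 0.28 without anti-GAA replicate 1.

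**Figure D2:**
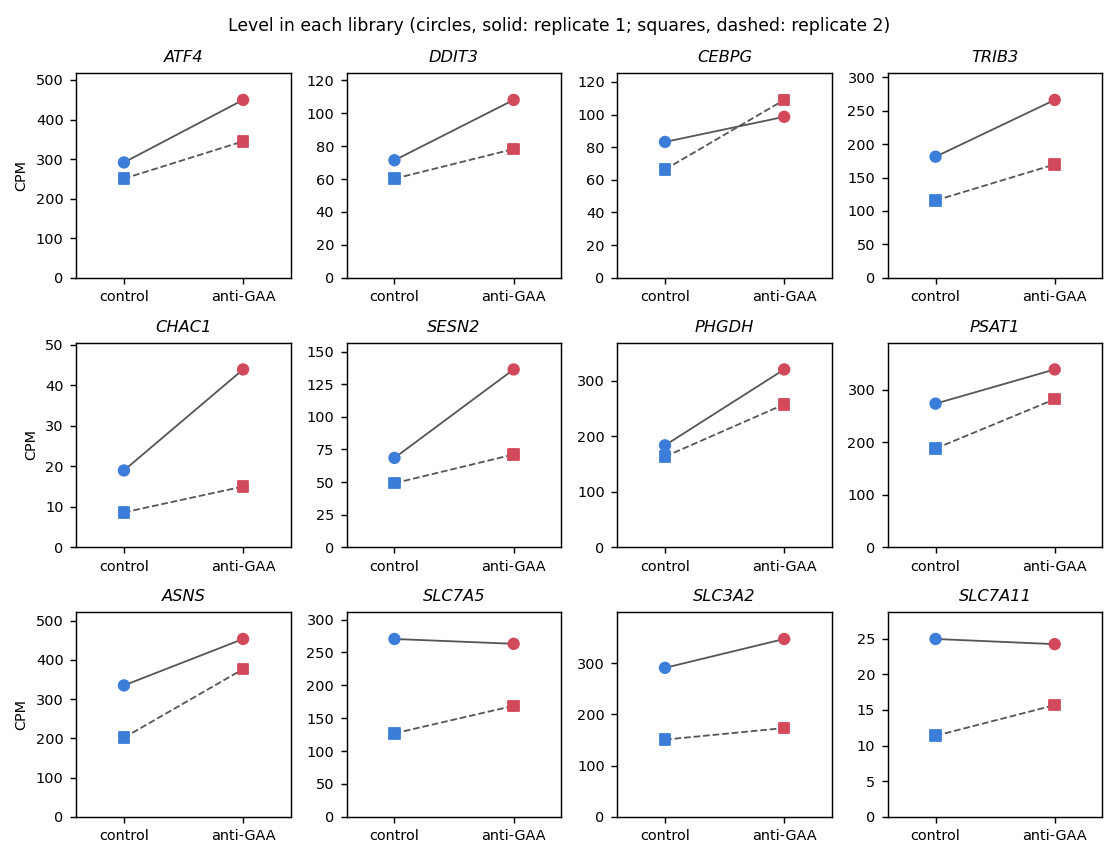
CPM of 12 members in each library, with control in blue and anti-GAA in red and each axis starting at 0. Solid lines and circles are replicate 1 and dashed lines and squares replicate 2. The lines of TRIB3, CHAC1 and SESN2 are raised from control to anti-GAA in both replicates but start at different levels, while SLC7A5 and SLC7A11 differ more between replicates than between ASOs.

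CHAC1 and ASNS are also the members called with the block whose promoter window holds the C/EBP-ATF motif, and their windows are printed to show where it lies. Windows run from 250 bases before to 50 bases after the RefSeq transcription start, and the motif was searched as TGATGNAAN on both strands. The CHAC1 window is chr15:40953221-40953520 and the ASNS window chr7:97872359-97872658 (GRCh38.p14, plus strand for CHAC1, minus strand for ASNS). Each is written 5′ to 3′ along the gene, with the motif in capitals.
CHAC1: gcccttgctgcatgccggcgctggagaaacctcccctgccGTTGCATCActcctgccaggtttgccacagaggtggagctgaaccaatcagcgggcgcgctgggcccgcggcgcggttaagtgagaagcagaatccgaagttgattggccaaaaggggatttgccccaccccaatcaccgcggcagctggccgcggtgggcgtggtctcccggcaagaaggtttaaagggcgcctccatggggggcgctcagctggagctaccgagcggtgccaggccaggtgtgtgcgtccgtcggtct
ASNS: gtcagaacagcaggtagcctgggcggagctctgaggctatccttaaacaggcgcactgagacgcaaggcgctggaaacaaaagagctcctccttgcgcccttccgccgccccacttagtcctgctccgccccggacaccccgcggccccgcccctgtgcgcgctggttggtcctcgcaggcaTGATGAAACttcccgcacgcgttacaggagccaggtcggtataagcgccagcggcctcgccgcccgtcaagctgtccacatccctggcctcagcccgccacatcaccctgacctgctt
In CHAC1 the match begins at −210 from the start and reads TGATGNAAN on the opposite strand. In ASNS it begins at −68 on the gene's own strand. Of the 29 members with a window, 5 held the motif (17.2%), against 3.67% of all 27305 windows and 1.68% of 10558 windows of tested genes. The others were MTHFD1L at −129, SLC7A1 at 8 and SLC3A2 at 37 from the start. The list was built from ATF4, its partners and its known targets, so nothing is read from the difference in these shares. The stricter TGATGCAAT, which is contained in the first motif, was found in 1 member, MTHFD1L, and in 0.264% of all windows. PHGDH and SESN2 do not have these letters in the searched windows. The 5 members with the motif had a median log2 fold change of 0.33 between the ASOs and the 22 tested members without it 0.27.

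Among the transcription factors, ATF4 itself (ENSG00000128272, chr22:39519695-39522683) had 450 and 345 CPM under anti-GAA, against 291 and 251 CPM in control. Its libraries did not overlap, and its log2 fold change was 0.55 (standard error 0.22), between 0.36 and 0.73 with any 1 library left out. DDIT3, which encodes the pro-apoptotic factor CHOP, had 108 and 78.2 CPM against 71.4 and 60.2 CPM, also separated, at 0.50 (standard error 0.23), but 0.26 without anti-GAA replicate 1. CEBPG, a heterodimer partner of ATF4, had 98.6 and 109 CPM against 83.2 and 66.3 CPM, at 0.47 (standard error 0.21). These 3 factors were thus higher in each anti-GAA library than in each control library. ATF5, translated under stress much as ATF4 is, was at 0.34, with libraries that overlapped (18.2 and 11.97 CPM against 14.4 and 9.32 CPM). CEBPB, the bZIP factor of inflammation and adipogenesis, had 102 and 109 CPM against 114 and 99.3 CPM and a log2 fold change of −0.017, with opposite signs in the pairs. JDP2, a repressor of the AP-1 family, was at 0.083. NUPR1, a small stress-induced chromatin protein, had between 6 and 13 counts in each library, too few to place it. None of the 7 factors passed an adjusted p of 0.05 between the ASOs, with or without the block.

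The feedback and signalling genes did not move as one. TRIB3, a pseudokinase that binds and restrains ATF4, had 266 and 170 CPM under anti-GAA, against 181 and 116 CPM in control. It was 1.47 times higher in either pair, although the conditions overlapped, and its log2 fold change was 0.55 (standard error 0.31). It was 0.20 without anti-GAA replicate 1, 0.27 without control replicate 2, 0.85 without anti-GAA replicate 2 and 0.91 without control replicate 1. PPP1R15A, the phosphatase subunit GADD34 that restores eIF2 and ends the response, had 33.7 and 16.2 CPM against 40.1 and 21.3 CPM, a log2 fold change of −0.31 (standard error 0.42) with overlapping libraries, and was lower in both pairs. Its direction rested on single libraries, with −0.92 without anti-GAA replicate 1 but 0.14 without anti-GAA replicate 2 and 0.21 without control replicate 1. DDIT4, an inhibitor of mTORC1, had 6.16 and 8.65 CPM against 6.26 and 5.19 CPM, and EIF4EBP1, which blocks the cap-binding factor eIF4E, 83.2 and 91.2 CPM against 77.7 and 77.7 CPM. EIF4EBP1 was separated by ASO although its log2 fold change was 0.17.

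In one-carbon metabolism, none of the mitochondrial folate enzymes was separated by ASO. MTHFD2 had 373 and 479 CPM under anti-GAA, against 386 and 341 CPM in control, a log2 fold change of 0.23 with opposite signs in the pairs. SHMT2, which converts serine to glycine and feeds this pathway, had 150 and 147 CPM against 167 and 130 CPM, at −0.0058. MTHFD1L was at 0.12 and ALDH1L2, with 8 to 20 counts in a library, at 0.30. The median was 0.17 for these 4 genes and 0.53 for serine and asparagine synthesis, a difference that was not tested. Without control replicate 2 the medians were 0.072 and 0.25, and without anti-GAA replicate 2 they were 0.031 and 0.66.

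The 4 tested enzymes of proline, alanine and cysteine metabolism were higher in both pairs. Their median log2 fold change was 0.24, as it was over all members, but 0.12 without control replicate 1 and 0.38 without control replicate 2. ALDH18A1, the first enzyme of proline synthesis from glutamate, had 134 and 136 CPM against 112 and 122 CPM, and GPT2, the mitochondrial alanine aminotransferase, 59.4 and 58.5 CPM against 42.6 and 54.8 CPM. Both were separated by ASO, with log2 fold changes of 0.21 (standard error 0.19) and 0.28 (0.22). Without control replicate 1 they were 0.14 and 0.097, and without control replicate 2 GPT2 was at 0.48. PYCR1, the last enzyme of proline synthesis, was low, at 1.65 to 2.63 CPM on 26 to 39 counts in a library. It was at 0.080 (standard error 0.44), 1.03 times higher in the first pair and 1.12 times higher in the second, on overlapping libraries. CTH, which releases cysteine from cystathionine, had 8.18 and 11.9 CPM against 5.999 and 10.2 CPM, at 0.31. CBS, which makes cystathionine, was below the filter, with 2 and 1 counts with the anti-GAA ASO and 4 and 21 with the control ASO, so that 1 library held most of its reads.

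The 8 amino-acid transporters had log2 fold changes between 0.097 and 0.42 and a median of 0.17. SLC7A1, the transporter of cationic amino acids, was the only one separated by ASO, with 109 and 101 CPM against 94.9 and 72.1 CPM, at 0.33 (standard error 0.22), but 0.15 without control replicate 2 and 0.53 without control replicate 1. SLC7A5, the leucine transporter LAT1, had 263 and 169 CPM under anti-GAA, against 271 and 127 CPM in control. Its partner SLC3A2, the heavy chain shared with SLC7A11, had 347 and 173 CPM against 291 and 151 CPM, and SLC7A11, the cystine-glutamate exchanger, 24.2 and 15.7 CPM against 25.0 and 11.4 CPM. All 3 were high in replicate 1 and low in replicate 2 under either ASO. SLC38A2 and SLC1A5, carriers of glutamine and other neutral amino acids, were at 0.097 and 0.12, and SLC1A4, a carrier of alanine, serine and cysteine, at 0.22. The glycine transporter SLC6A9 was at 0.42 (standard error 0.66) on 11 to 41 counts in a library. The direction of the group rested on single libraries, with a median of −0.13 without control replicate 2, −0.014 without anti-GAA replicate 1, 0.41 without anti-GAA replicate 2 and 0.65 without control replicate 1. Of the remaining targets, XPOT, which exports tRNAs from the nucleus, was at 0.15 and the secreted glycoprotein STC2 at 0.087. The lipoprotein receptor VLDLR had 2 and 0 counts with the anti-GAA ASO and 0 and 1 with the control ASO, where 0 counts allow up to 0.169 CPM in anti-GAA replicate 2 and 0.196 CPM in control replicate 1.

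Per length of exon, mean levels over the 4 libraries spanned from ATF4 (128 CPM per kb), PSAT1 (123), EIF4EBP1 (93.7) and ASNS (69.8) down to NUPR1 (0.122) and ALDH1L2 (0.0927) among tested members. In the control libraries alone ATF4 was at 112 and 95.9 CPM per kb, PSAT1 at 124 and 85.3, and PHGDH at 19.995 and 17.8. The length is that of all annotated exons of a gene together, which for PHGDH is 9187 nt, against 3180 nt in its longest transcript. The order of the genes therefore depends on the length used.

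The replicate numbers give a comparison between the same libraries that the choice of the members did not use. In the fit with both terms, 10 of the 35 members were lower in replicate 2 than in replicate 1 and 0 were higher at an adjusted p under 0.05 from edgeR, where 7.52% of all tested genes were called lower and 6.98% higher. DESeq2 called 8 lower and 0 higher, of 31 members with an adjusted p, beside 4.15% and 2.66% of genes, and all 8 are among the 10 of edgeR. The median log2 difference of the members was −0.30, against 0.016 over all tested genes. It was −0.36 between the control libraries and −0.26 between the anti-GAA libraries. By the same edgeR test, 3 of 7 tested NRF2 targets, a list described below, were called lower and 0 higher, with a median of −0.40. Of 17 tested further ATF4 targets 2 were called lower and 1 higher (median −0.11), and of 8 p53 targets 0 (median 0.26). The fall was thus not particular to the members. The fit with both terms leaves 1 residual degree of freedom, and its p-values rest in part on the spread of other genes, as above. They measure only the spread between these 4 libraries. The labels do not say what the numbers mark. Depth moved with the number in the anti-GAA libraries (10538284 and 17894953 counts) and little in the controls (15347298 and 15924742 counts), and its part in the result was not tested.

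Of the transporters 4 of 8 were called lower in replicate 2, among them SLC3A2 with a log2 fold change of −0.98 (standard error 0.14, adjusted p = 0.000662 from edgeR). SLC7A5 fell by 0.87 (standard error 0.15, adjusted p = 0.00257 from edgeR), SLC7A11 fell by 0.88 (adjusted p = 0.00691 from edgeR) and SLC1A5 fell by 0.59 (adjusted p = 0.0141 from edgeR). These 4 had ASO differences between 0.12 and 0.24, so their replicates lay farther apart than their conditions. Of the feedback and signalling genes, CHAC1 fell by 1.36 (standard error 0.18, adjusted p = 0.000319 from edgeR), PPP1R15A fell by 0.98 (adjusted p = 0.00140 from edgeR), SESN2 fell by 0.71 and TRIB3 fell by 0.65 (adjusted p = 0.00766 from edgeR for each of the last pair). ASNS and ATF5 completed the 10, at −0.50 (adjusted p = 0.0446 from edgeR) and −0.62 (adjusted p = 0.0402 from edgeR). ATF4 was at −0.30 (adjusted p = 0.172 from edgeR) and PHGDH at −0.24 (adjusted p = 0.262 from edgeR), which did not pass. CTH lay the other way at 0.65 (adjusted p = 0.0541 from edgeR) and was called higher with scaling to total counts, without a filter and with the length and GC correction. CHAC1, SESN2 and ASNS were called on both axes, higher with the anti-GAA ASO and lower in replicate 2, whereas PPP1R15A was below 0 on both.

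**Figure D3:**
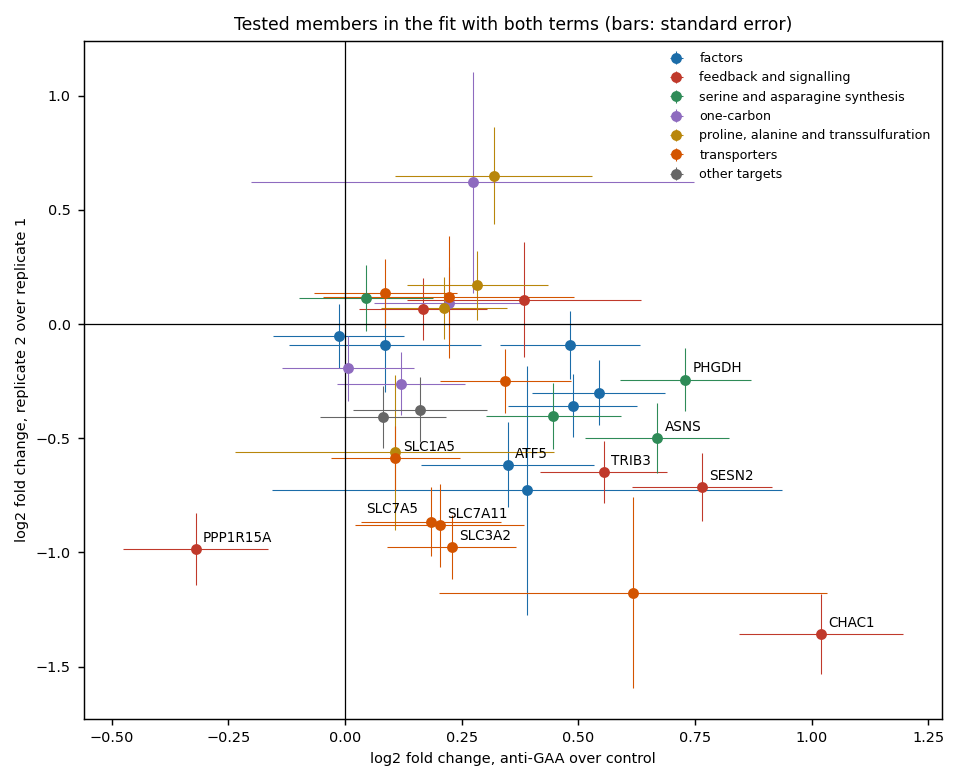
Log2 fold change between the ASOs (horizontal) and between the replicate numbers (vertical) in edgeR's fit with both terms for the 35 tested members, coloured by role, with standard errors as bars. Members called on either axis are named. CHAC1 lies at 1.02 and −1.36, SLC3A2, SLC7A5 and SLC7A11 lie low but near 0.2 on the horizontal axis, and PHGDH lies far to the right at −0.24.

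Other genes of the pathway were taken from lists of its upstream arm and of further targets. Of 8 eIF2 kinases and their activators, 4 were above 0 and 4 below, and 0 were called with or without the block. The heme-regulated kinase EIF2AK1 had 183 and 185 CPM under anti-GAA, against 140 and 153 CPM in control, separated by ASO at a log2 fold change of 0.33 (standard error 0.19). The double-stranded RNA kinase EIF2AK2 was at −0.037, the amino-acid sensing EIF2AK4 at −0.024 and the endoplasmic reticulum kinase EIF2AK3 at −0.35, the last at 3.32 to 4.50 CPM. Of 10 subunits of eIF2, eIF2B and the eIF2 phosphatase, 3 were above 0 and 7 below, with a median of −0.095 and none called.

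Of 18 further ATF4 targets, 17 were tested, 15 were above 0 and 2 below, with a median of 0.29. With the block 2 were called higher and 1 lower. GARS1, the glycyl-tRNA synthetase, had 457 and 448 CPM under anti-GAA, against 303 and 285 CPM in control, and SQSTM1, the autophagy receptor p62, 48.9 and 39.9 CPM against 34.1 and 20.7 CPM. The one called lower was ATF3, a stress-induced factor downstream of ATF4 that other pathways also induce, with 193 and 92.5 CPM against 346 and 191 CPM. Its log2 fold change was −0.91 (standard error 0.41), or −0.94 (0.14) with the block, and like PPP1R15A it was also lower in replicate 2 (−0.96, adjusted p = 0.000821 from edgeR). GDF15, a secreted stress hormone, had 571 and 728 CPM against 395 and 570 CPM, at 0.43, and between the replicate numbers it was at 0.44 (adjusted p = 0.0594 from edgeR), which did not pass.

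Lists of neighbouring stress responses were set beside the members. Of 11 tested genes of the other endoplasmic reticulum stress branches, 5 were above 0 and 6 below, with a median of −0.021 and none called. The chaperone HSPA5 (BiP) had 889 and 905 CPM under anti-GAA, against 850 and 697 CPM in control, at 0.21. Of 7 tested NRF2 targets, a response that also drives SLC7A11, 5 were above 0 with a median of 0.30. The heme oxygenase HMOX1 was called higher with the block, with 178 and 71.5 CPM against 93.8 and 41.1 CPM. Its conditions overlapped, at a log2 fold change of 0.88 (standard error 0.51), or 0.86 (0.14) with the block. Between the replicate numbers it was at −1.25 (adjusted p = 0.000100 from edgeR), so its replicates lay farther apart than its conditions. Of 8 p53 targets, 2 were above 0 and 6 below, with a median of −0.12 and none called. The epithelial markers had a median of −0.27, with 4 of the 5 tested lower in both anti-GAA libraries than in either control, and their part in the members' differences was not tested.

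**Figure D4:**
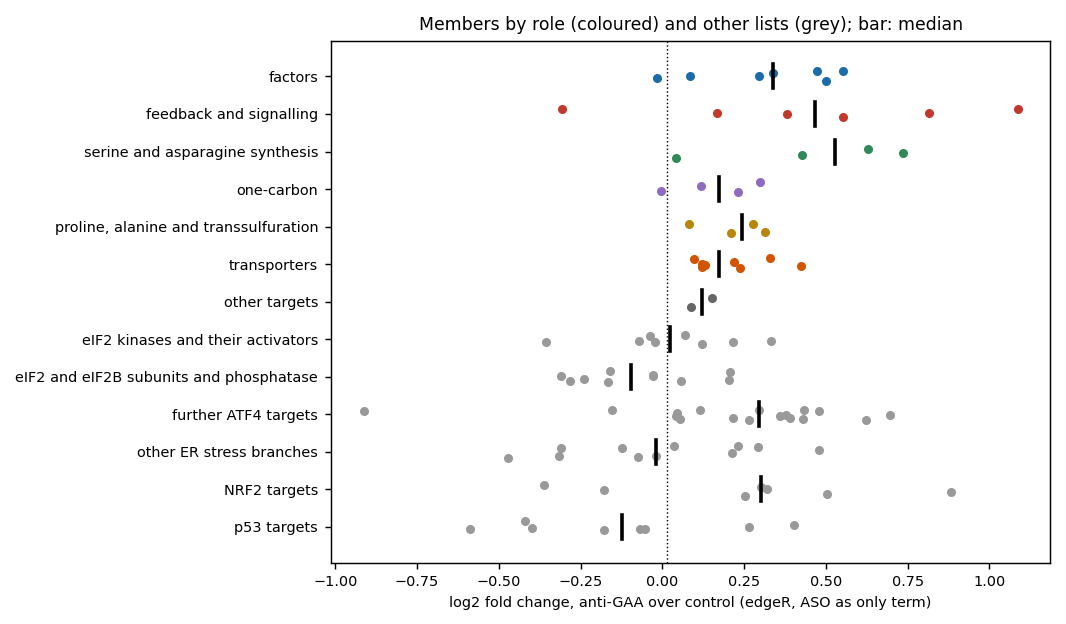
Log2 fold change between the ASOs in edgeR with the ASO as the only term for each tested gene of the members' roles (coloured) and of the other lists (grey), with a bar at the median and a dotted line at the median of all tested genes (0.013). Serine and asparagine synthesis has a median of 0.53 (0.25 without control replicate 2, below feedback and signalling at 0.27 and proline, alanine and transsulfuration at 0.38), the eIF2 and eIF2B subunits lie mostly below 0, and ATF3 stands alone at −0.91 among further targets.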

How the data were processed

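Counts per gene were analysed for 4 RNA-seq libraries of HCT116 cells (2 anti-GAA, 2 control). Per the paper's methods, reads were trimmed (Trimmomatic 0.38), aligned to hg19 (STAR 2.6.1), cleared of those on GL contigs and assigned to Ensembl genes (featureCounts 1.6.3) by the authors. The deposited values are these raw counts, whole numbers without normalization, and every column was used. The release of the annotation, whether strand was used and how multi-mapping reads were handled are not given in the sources used here.

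Genes kept by filterByExpr (15116) were scaled by TMM and tested in R 4.3.3 with edgeR 4.0.16 (quasi-likelihood test, the ASO as the only term, Benjamini-Hochberg adjustment over all tested genes, threshold 0.05). A second fit took the replicate number as a block. Its coefficient for the number gave the comparison of replicates 2 and 1. Standard errors are the log2 fold change divided by the root of the F statistic. Pair values compare log2 CPM (prior count 2) within a replicate number. The paper's methods name DESeq2, used here as an alternative (1.42.0, alpha of 0.05). The scripts were tested on simulated data. Symbols, transcripts, exon lengths and chromosomes came from GENCODE 44 on GRCh38 by Ensembl identifier (52181 of 63677 genes matched), promoters from RefSeq (GRCh38.p14) by symbol (29 of 37 members matched), with Python 3.11.15, pandas 2.3.3 and numpy 2.4.6, and figures from matplotlib 3.10.9. The trend on length and GC was fitted with mgcv 1.9.3 on 14751 genes.

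The members and lists were chosen with earlier results of these data known. Named are all members, the genes of the other lists called with or without the block, and 7 well-known pathway genes. Intervals for 0 counts (3 counts per library) cover counting error only. Replicates are labelled as such, without stating separate cultures.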

Additional observations from a re-analysis of the deposited data

How the results depend on the processing

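The median log2 fold change of the members between the ASOs stayed above 0 under every alternative run, from 0.14 with scaling to total counts to 0.30 with the length and GC correction, and from 0.15 to 0.41 with 1 library left out (0.41 without control replicate 1, 0.15 without control replicate 2). Without control replicate 2, 13 members were below 0, and with scaling to total counts 7 were, where the median of all tested genes was −0.081. Members called higher numbered 0 without a block, 4 with the replicate block, 2 with DESeq2 and the block, 5 with the block and the length and GC correction together (TRIB3 in addition) and 3 at an unadjusted p under 0.05. With 1 library left out they numbered from 0 to 1 (CHAC1, without anti-GAA replicate 2). No fit called a member lower. Over all genes, calls higher and lower were 0 and 0 without a block, 51 and 207 with the block, 13 and 45 with DESeq2 and the block, 100 and 193 with the block and the length and GC correction, 5 and 111 without a filter (28017 genes), 0 and 5 with DESeq2, 154 and 523 at an unadjusted p under 0.05, and from 0 to 3 and from 0 to 16 with 1 library left out (2 and 16 without control replicate 1, 3 and 2 without anti-GAA replicate 2). Which of these settings is nearer the truth was not tested, and the cause of the differences was not tested.

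Between replicate numbers, DESeq2 called 316 genes higher and 494 lower, against 1055 and 1136 in edgeR. Members called lower numbered from 8 to 12 over 4 alternatives against 10, and 1 member (CTH) was called higher with scaling to total counts, without a filter and with the length and GC correction. Leaving out a library leaves no residual degree of freedom in this fit, and it was not run. Deviations from the condition means correlated within a replicate number (Pearson's r of 0.564 across all tested genes, 0.668 across members, genes not being independent replicates), and the first principal component (52.7% of the variance) separated the numbers. This is a hint from the data, not from the design. With 2 libraries a condition no library could be tested as out of place. Low counts limit NUPR1, ALDH1L2, PYCR1, SLC6A9, CBS and VLDLR.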
